A study of Mus musculus with 158 samples.

Results

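Open chromatin was described at 10 mouse genes that mark successive segments of the nephron, the filtering and reabsorbing unit of the kidney: Slc34a1, Slc5a2, Slc22a6 and Lrp2 of the proximal tubule, Umod and Slc12a1 of the thick ascending limb, Slc12a3 and Kl of the distal tubule, and Aqp2 and Scnn1b of the collecting duct. Each gene was taken with 20 kb on either side of its GENCODE body on the mm10 genome, and every DNase I hotspot overlapping that window was counted. A hotspot is a stretch of genome in which nuclease cuts are denser than the local background, here at a false discovery rate of 5%, and marks chromatin that is open in at least some of the cells. The 10 windows held 2156 of the 3925513 hotspots in the 20 adult sets, and the 10 genes were read against 21755 protein-coding genes.

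The adult sets came from F1 mice with C57BL/6J mothers, and the 5 hybrids carry the strain of the father in their names: B6x129, B6xC3H, B6xCAST, B6xPWK and B6xSPRET, the last from another mouse species. From mice 8 weeks old, whole liver, both kidneys and all lung lobes were taken, and B cells were prepared from femoral marrow of females by depleting cells that carried CD43 or CD11b. The study asked how strain differences in DNA sequence relate to open chromatin, and all libraries of a hybrid and tissue, solid tissues usually from several pooled mice, were combined into 1 hotspot set. Each tissue therefore had 5 sets, 1 per hybrid, and the spread given below is the spread over hybrids. Mouse embryonic stem cells (mESCs) of B6xCAST gave 1 DNase-seq hotspot set, where the labels list 2 libraries, and 1 CTCF ChIP-seq set, so neither set has a replicate. RNA-seq tables came from 17 samples of adult tissue. By the labels, those of kidney, liver and lung were from B6xC3H, B6xPWK and B6xSPRET. Those of B cells were from these hybrids and B6xCAST, and none was from B6x129.

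The kidney sets held 186061 to 238917 hotspots over 63.6 to 85.2 Mb, the liver sets 211762 to 295565, the lung sets 152006 to 281978 and the B cell sets 78387 to 156078. B6xSPRET had the smallest of the kidney sets. The tissues carried their defining markers, read as a hotspot within 500 bp of the start: all 4 lung markers in every lung set and none in any kidney set, all 4 liver markers in every liver set, and all 4 B cell markers in every B cell set. Of the liver markers, 1 to 3 of 4 had a start hotspot in the kidney sets. Kidney sets also held start hotspots at all 4 endothelial markers, at 3 or 4 of 4 podocyte markers and at 0 to 2 of 4 leukocyte markers, and whole organs had been used. Brown fat markers had them at 2 or 3 of 3, and adrenal cortex markers at 0 or 1 of 5. The podocyte markers Podxl and Synpo and the endothelial marker Kdr had one in every adult set, so these do not set kidney apart. B cell markers had them at 1 to 4 of 4 in lung sets and 0 to 3 in liver sets, and the liver marker Alb in all 5 lung sets. In bulk tissue a site open in few cells and a site weakly open in many cannot be told apart, and a file that lists only hotspots does not show that a site outside them was closed.

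Along the nephron, filtrate passes first through the proximal tubule, which recovers most of the glucose, phosphate and protein and secretes organic anions. The thick ascending limb and distal convoluted tubule then recover salt, and the collecting duct sets the final amount of water and sodium under vasopressin and aldosterone. Each of these epithelia is known for a small set of transporters made by few other cell types. Active promoters and enhancers of such genes are usually nuclease-sensitive in the cells that use them, whereas promoters rich in CpG dinucleotides are often open in many cell types.

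Promoters of 5 of the genes, from 250 bases before to 50 bases after the RefSeq start on GRCm38.p6, are shown for their range in CpG content. CpG dinucleotides are in capitals, and the sequences are read 5′ to 3′ along each gene's strand. The first 3 promoters carried hotspots in kidney and in no other set, and the last 2 also carried one in mESCs.
Slc34a1 promoter, chr13:55399398-55399697, plus strand: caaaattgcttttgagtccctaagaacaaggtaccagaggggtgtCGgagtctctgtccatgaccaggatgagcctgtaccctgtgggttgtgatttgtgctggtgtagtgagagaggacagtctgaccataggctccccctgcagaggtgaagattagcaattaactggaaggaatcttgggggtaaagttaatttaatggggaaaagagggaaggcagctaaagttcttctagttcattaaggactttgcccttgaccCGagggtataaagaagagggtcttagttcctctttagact
Slc12a1 promoter, chr2:125152350-125152649, plus strand: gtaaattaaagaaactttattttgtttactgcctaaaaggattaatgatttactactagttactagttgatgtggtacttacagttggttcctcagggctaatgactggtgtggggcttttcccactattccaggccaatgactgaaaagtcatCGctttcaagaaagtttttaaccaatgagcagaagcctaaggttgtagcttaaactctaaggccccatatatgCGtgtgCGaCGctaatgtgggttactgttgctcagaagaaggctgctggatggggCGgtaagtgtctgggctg
Aqp2 promoter, chr15:99578806-99579105, plus strand: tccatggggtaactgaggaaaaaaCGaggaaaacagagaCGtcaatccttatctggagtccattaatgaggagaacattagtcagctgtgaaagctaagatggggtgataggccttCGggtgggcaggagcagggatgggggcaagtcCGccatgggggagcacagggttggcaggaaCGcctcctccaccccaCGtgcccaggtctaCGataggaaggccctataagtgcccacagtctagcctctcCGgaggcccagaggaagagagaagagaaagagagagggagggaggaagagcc
Kl promoter, chr5:150952357-150952656, plus strand: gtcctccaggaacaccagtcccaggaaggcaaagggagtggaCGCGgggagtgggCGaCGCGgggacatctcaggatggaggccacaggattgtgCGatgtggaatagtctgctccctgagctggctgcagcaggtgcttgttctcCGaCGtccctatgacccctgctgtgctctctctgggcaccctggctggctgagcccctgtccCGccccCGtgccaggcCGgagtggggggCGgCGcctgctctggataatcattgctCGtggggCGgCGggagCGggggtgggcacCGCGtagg
Lrp2 promoter, chr2:69585980-69586279, minus strand: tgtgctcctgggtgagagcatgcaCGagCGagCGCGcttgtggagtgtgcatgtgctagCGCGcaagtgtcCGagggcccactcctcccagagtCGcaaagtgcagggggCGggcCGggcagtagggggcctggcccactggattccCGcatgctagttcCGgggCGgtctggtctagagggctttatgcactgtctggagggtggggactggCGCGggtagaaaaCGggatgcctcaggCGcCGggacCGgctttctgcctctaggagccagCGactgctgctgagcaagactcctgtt

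The Slc34a1 promoter held 2 CpG, Slc12a1 5 and Aqp2 8, against 19 at Kl and 20 at Lrp2. RefSeq promoters were found for 9 of the 10 genes, all but Slc5a2. Of the other 4, Umod had no CpG, Slc22a6 had 2, Slc12a3 had 4 and Scnn1b had 10. Few CpG did not always go with kidney alone: 4 sets of other tissues had a hotspot at the Umod promoter and 1 at that of Slc22a6. The 3 promoters with 10 or more CpG, those of Lrp2, Kl and Scnn1b, were also the 3 with a hotspot in mESCs. Over all 32851 promoters the median was 7 CpG. Of the 14272 autosomal and X-linked promoters with 10 or more CpG, 88.4% carried an mESC hotspot and 0.147% carried hotspots in all 5 kidney sets and no other set, whereas among the 12291 with 4 or fewer the shares were 6.54% and 1.03%. The 6056 promoters with 5 to 9 CpG, the class of Slc12a1 and Aqp2, had shares of 29.2% and 1.29%. CpG were counted after the start hotspots had been seen, and 9 promoters give a description only.

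**Figure D1:**
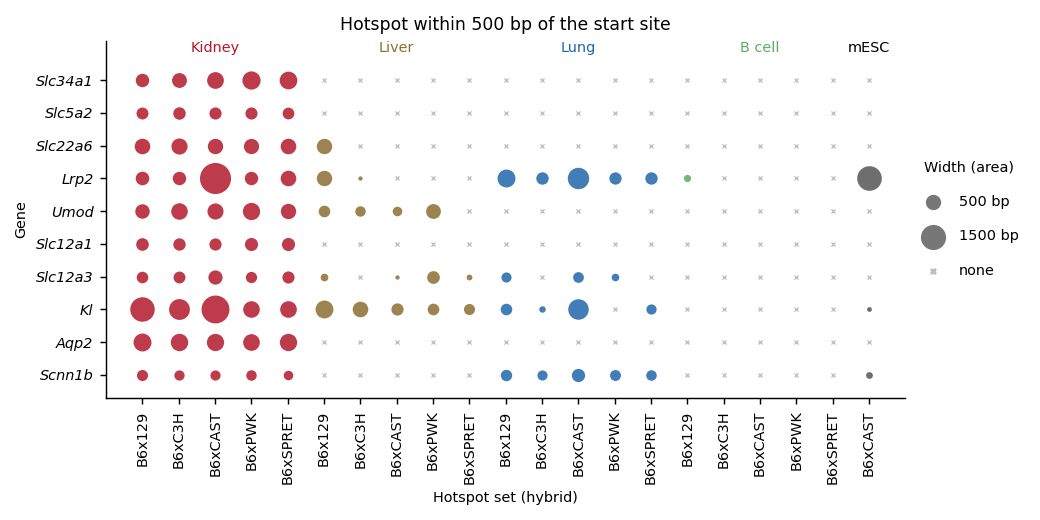
Hotspots within 500 bp of the start site of each gene (rows) in the 5 sets of each tissue and the mESC set (columns), with circle area proportional to hotspot width in bp and a cross where there was none. All 10 genes had one in every kidney set, and Slc34a1, Slc5a2, Slc12a1 and Aqp2 had none elsewhere.

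All 10 genes had a hotspot within 500 bp of the start in all 5 kidney sets, compared with 61.9% of protein-coding genes (13463 of 21755). At 4 of them, Slc34a1, Slc5a2, Slc12a1 and Aqp2, no set of liver, lung, B cells or mESCs had one. Among all protein-coding genes 0.405% (88 of 21755) had a start hotspot in all kidney sets and in no other adult set. The other 6 starts were shared: Slc22a6 with 1 liver set, Umod with 4 liver sets, Scnn1b with 5 lung sets, Kl with 5 liver and 4 lung sets, Slc12a3 with 4 liver and 3 lung sets, and Lrp2 with 2 liver, 5 lung and 1 B cell set. The share of genes with the kidney-only pattern is a count with no test, and the 10 genes were chosen with earlier results of these data known.

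Which starts were open in kidney alone turned on the definition of the start at Slc12a3, Slc12a1 and Slc34a1. Slc12a3 encodes the thiazide-sensitive sodium chloride cotransporter of the distal convoluted tubule. Its kidney hotspots lay over the start base in all 5 hybrids, with widths of 349 to 557 bp. Its liver hotspots lay 82 to 315 bp from the start base, and its lung hotspots 181 to 390 bp from it. Counting hotspots over the start base itself put Slc12a3 with the 4 kidney-only genes. Within 1 kb, Slc12a1 gained 3 sets of other tissues and left them. With the start put at the 5′ end of the GENCODE gene record, Slc34a1 had a start hotspot in 4 of the 5 kidney sets and in no other set, and so left them too.

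Start hotspots differed in width and score. The score is the −log10 of the hotspot's false discovery rate, limited to 100 in the files, and it depends on depth as well as on openness. At Slc34a1, which encodes the main sodium phosphate cotransporter of the proximal tubule, widths in B6x129, B6xC3H, B6xCAST, B6xPWK and B6xSPRET kidney were 498, 609, 775, 917 and 866 bp, with scores of 22.7, 33.2, 100, 100 and 82.4. Slc5a2, the glucose cotransporter of the early proximal tubule, had narrower hotspots of 382 to 430 bp with scores of 18.1 to 35.8. Slc12a1, the furosemide-sensitive sodium potassium chloride cotransporter, was similar to it in width at 411 to 477 bp, with scores of 15.1 to 24.2.

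The collecting duct starts had scores of 14 or less in kidney. Aqp2, the vasopressin-regulated water channel, had wide kidney hotspots of 769 to 889 bp whose scores were 5.62, 6.74, 10.1, 14 and 7.45 in the same order of hybrids. Scnn1b, the beta subunit of the epithelial sodium channel, had hotspots of 252 to 339 bp with scores of 4.34 to 10.5 in kidney. In lung, whose airway epithelium also makes this channel, Scnn1b scores were 6.56 to 41.3, and the lung hotspot was the higher-scoring one in 4 of the 5 hybrids. When each set was cut to its 75000 highest-scoring hotspots, the Scnn1b start was left in 0 of 5 kidney and 5 of 5 lung sets, and the Aqp2 start in 1 of 5 kidney sets.

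The question of whether the windows as a whole were more open in kidney was put by an exact permutation test. It exchanged the kidney label among the 4 tissues within each hybrid (all arrangements, two-sided), for each of 21495 protein-coding genes with any hotspot, and p-values were adjusted over all of them by the Benjamini-Hochberg method. More base pairs were covered in kidney at 3 of the 10 genes, Umod, Slc12a1 and Kl, where 6.31% of all genes were called in that direction. More hotspots were counted in kidney at 3 of the 10, Slc34a1, Umod and Kl, against 4.15% of all genes. The difference in bp covered was positive at all 10, with a median of 2157 bp against 12.5 bp over all genes tested. The smallest p the test allows is 0.000977, and the adjusted value it receives, 0.0211, rests on the 995 genes that reached it. With 50 kb flanks none of the 10 was called for bp covered, and with any 1 hybrid left out, or without the B cell sets, no gene of the genome was.

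**Figure D2:**
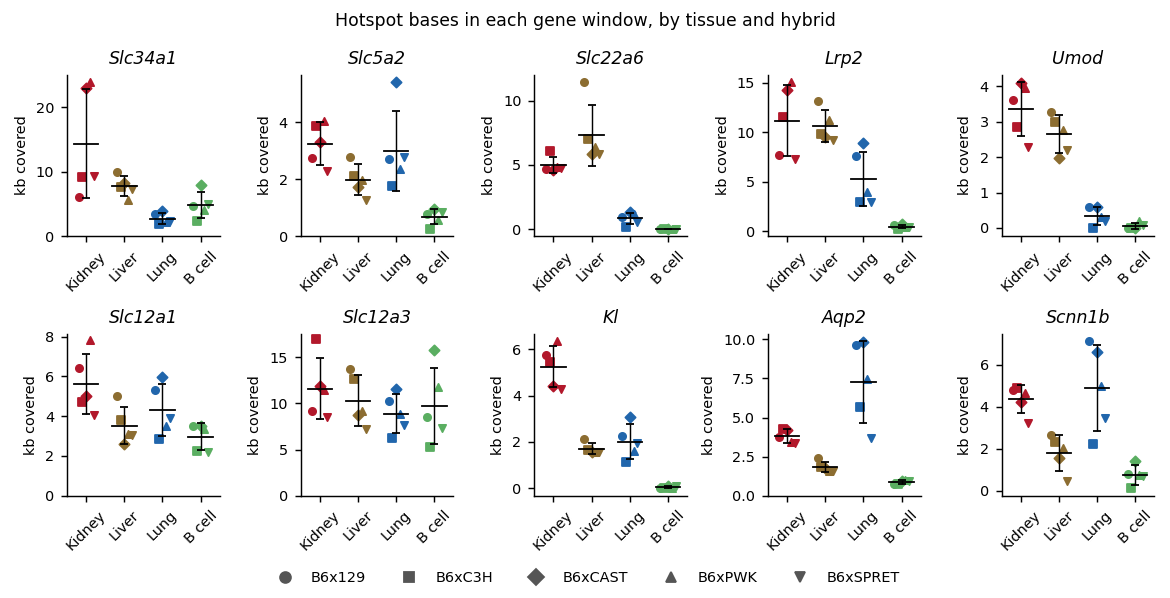
Kilobases inside hotspots in each gene's window (vertical axes, separate scales) by tissue, with 1 point per hybrid (symbols), a line at the mean and bars for 1 SD over 5 hybrids. Only at Kl do all 5 kidney points lie above every other point, and at Aqp2 the lung mean is above the kidney mean.

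Among the proximal tubule genes, Slc34a1 (chr13:55398187-55415592) had the largest kidney difference and the largest spread. Its window held 6117, 9162, 22892, 23917 and 9374 bp of hotspots in B6x129, B6xC3H, B6xCAST, B6xPWK and B6xSPRET kidney. Liver covered 5657 to 9910 bp, lung 1841 to 3886 bp and B cells 2440 to 8007 bp. B6xCAST and B6xPWK kidney stood far above the rest, while B6x129 kidney was below B6x129 liver. The difference, 9183 bp between 14292 ± 8425 (SD, n = 5) in kidney and a mean of 5109 elsewhere, did not pass the threshold (adjusted p = 0.0591, exact permutation test), although the number of hotspots did, at 24.6 ± 7.23 against a mean of 11.1 (adjusted p = 0.0306, n = 5, exact permutation test).

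Much of the Slc34a1 coverage was inside the gene. Hotspots covered 20.6%, 35.0%, 88.2%, 87.6% and 33.9% of the gene body in the kidney sets, in the same order of hybrids, and 1.24% to 13.3% in the 15 other sets. Every kidney set was above every other set in this share, and how many gene bodies do so was not counted. Restricted to the gene body, the kidney difference of 8209 bp passed the threshold (adjusted p = 0.0185, exact permutation test, n = 5). In that setting 1523 of 19785 genes were called for more bp in kidney. A merged region of 12686 bp, with parts open in all 20 sets, spanned most of the body. The B6xCAST and B6xPWK kidney sets covered 84.0 and 85.2 Mb of genome, close to the 80.1 Mb of B6x129, and the part of strain or library in the difference among hybrids was not tested. F12, coagulation factor XII, starts 27.1 kb away inside this window and had a start hotspot in 5 of 5 liver sets and in no kidney set. Pfn3, on the opposite strand, starts 15.5 kb from the Slc34a1 start and shares 545 exon bases with Slc34a1. It had a start hotspot in 5 kidney, 2 liver and 4 lung sets and in mESCs. Its part in the gene body coverage was not tested.

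**Figure D3:**
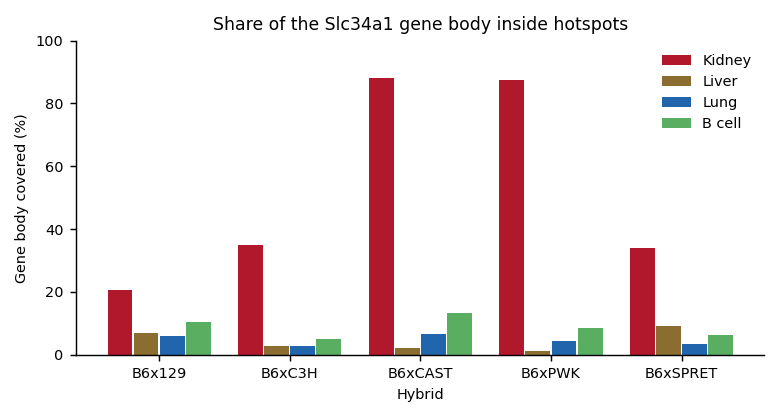
Percent of the Slc34a1 gene body inside hotspots (vertical axis, 0 to 100%) for each hybrid, with 1 bar per tissue and set. Kidney is highest in each hybrid and reaches 88.2% in B6xCAST and 87.6% in B6xPWK.

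Slc5a2 (chr7:128265657-128272430) was covered over 2274 to 4052 bp in kidney, 1286 to 2794 bp in liver, 1767 to 5410 bp in lung and 275 to 944 bp in B cells. The tissues overlapped, and the difference of 1360.1 bp did not pass (adjusted p = 0.302, exact permutation test, n = 5). Within the gene body alone it did, at 800.2 bp (adjusted p = 0.0185, exact permutation test, n = 5), where 1523 of 19785 genes were called. The body was covered over 11.3% to 17.8% in kidney, 2.88% to 11.1% in liver, 0% to 3.07% in lung and 0% in all B cell sets. Tgfb1i1, whose start lies 18.7 kb away in the window, had start hotspots in 18 of the 20 adult sets.

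Slc22a6 (chr19:8618039-8628299), which encodes the basolateral organic anion transporter, had more hotspot bases in liver than in kidney in all 5 hybrids. Kidney held 4609 to 6126 bp, liver 5848 to 11489 bp and lung 196 to 1318 bp. No B cell or mESC hotspot overlapped the window. Kidney and liver both averaged 11.8 hotspots. Liver had more hotspots than kidney in B6x129 (18 against 12) and B6xCAST (11 against 9), and fewer in the other hybrids. The median hotspot was wider in liver in every hybrid but B6xCAST (429 bp against 442 bp in kidney). The difference between kidney and the mean of the other tissues, 2283 bp, did not pass (adjusted p = 0.604, exact permutation test, n = 5).

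Lrp2 (chr2:69424340-69586065), which encodes the endocytic receptor megalin, had the longest window, 202 kb. Kidney hotspots covered 7697, 11544, 14267, 15098 and 7320 bp in B6x129, B6xC3H, B6xCAST, B6xPWK and B6xSPRET. Liver covered 9261 to 13135 bp, lung 3002 to 8886 bp and B cells 229 to 709 bp. Kidney was above liver in 3 hybrids, the same B6xC3H, B6xCAST and B6xPWK in which kidney coverage was largest, and below it in B6x129 and B6xSPRET. The difference of 5729 bp from the other tissues did not pass (adjusted p = 0.229, exact permutation test, n = 5). Its start hotspot was 2660 bp wide in B6xCAST kidney and 495 to 674 bp wide in the other 4 kidney sets.

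The thick ascending limb genes were both called. Umod (chr7:119462711-119479282), which encodes uromodulin, a protein secreted into the urine, was covered over 3597, 2841, 4095, 3942 and 2280 bp in kidney. Liver reached 1976 to 3270 bp, lung 0 to 599 bp and B cells 0 to 198 bp. Kidney was above liver in 4 hybrids and below it in B6xC3H. The mean of 3351 ± 769.8 bp (SD, n = 5) exceeded the mean of 1014 bp elsewhere (adjusted p = 0.0421, exact permutation test), as did the number of hotspots, 10.4 against 3.07 (adjusted p = 0.0402, exact permutation test, n = 5). With the gene body alone the bp difference did not pass (adjusted p = 0.0529, exact permutation test, n = 5), nor with hotspots near other genes' starts left out (adjusted p = 0.0595, exact permutation test, n = 5) or with the 75000 highest-scoring hotspots (adjusted p = 0.432, exact permutation test, n = 5). Gp2, a related membrane protein gene whose start lies 20 kb away, had start hotspots in 3 kidney sets and no other set.

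Slc12a1 (chr2:125152505-125230002) was covered over 6448, 4736, 5008, 7860 and 4068 bp in kidney. Liver reached 2623 to 4993 bp, lung 2832 to 5955 bp and B cells 2208 to 3521 bp. In B6xCAST the lung set was above the kidney set, and in the other 4 hybrids kidney was highest. The difference of 2029.9 bp passed (adjusted p = 0.0421, exact permutation test, n = 5). Divided by the Mb covered in each set it did not (adjusted p = 0.215, exact permutation test, n = 5), nor with the 75000 highest-scoring hotspots, where 81.1 bp were left. It was also lost with hotspots at a false discovery rate of 1% (adjusted p = 0.0659, exact permutation test, n = 5) and with the label permuted over all 20 sets (adjusted p = 0.0574, exact permutation test). The number of hotspots, 19.2 against 9.13, did not pass (adjusted p = 0.0607, exact permutation test, n = 5).

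Of the distal tubule genes, Kl (chr5:150952607-150993817) separated the tissues most cleanly. It encodes klotho, a co-receptor for the phosphate-regulating hormone FGF23. Kidney covered 5735, 5440, 4431, 6347 and 4300 bp, against 1539 to 2111 bp in liver, 1106 to 3094 bp in lung and 0 to 89 bp in B cells. Every kidney set was above every other set, as at 2.09% of all genes and at no other of the 10. The mean of 5251 ± 873 bp (SD, n = 5) was 4007 bp above the mean of the other tissues (adjusted p = 0.0211, exact permutation test). The start hotspot was 761 to 2147 bp wide in kidney and 339 to 883 bp in liver.

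Slc12a3 (chr8:94329201-94366214) showed no such separation. Kidney covered 8532 to 16964 bp, liver 7188 to 13785 bp, lung 6261 to 11559 bp and B cells 5300 to 15773 bp. Kidney was the highest set in B6xC3H and B6xSPRET. The B cell set was above kidney in B6xCAST and B6xPWK, and liver and lung were above it in B6x129. The difference of 1974 bp did not pass (adjusted p = 0.603, exact permutation test, n = 5), and 6 of the 51 merged regions of this window were open in all 20 sets.

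At the collecting duct genes lung matched or exceeded kidney. The Aqp2 window (gene at chr15:99579055-99584547) held 3771, 4292, 4233, 3446 and 3385 bp in kidney and 9613, 5698, 9857, 7466 and 3665 bp in lung, so that lung was higher in all 5 hybrids. Liver held 1566 to 2391 bp and B cells 729 to 1033 bp. This window includes Aqp5, a water channel of lung and glands that starts 11.7 kb from Aqp2 and had a start hotspot in 5 of 5 lung sets and 1 kidney set. It also includes Aqp6, a water channel of intercalated cells that starts 22.3 kb away and had one in 3 kidney sets. The difference of 497 bp did not pass (adjusted p = 0.928, exact permutation test, n = 5), and it turned to -1113 bp with the 75000 highest-scoring hotspots.

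Scnn1b (chr7:121865038-121918514) was covered over 3219 to 4872 bp in kidney and 2230 to 7111 bp in lung. Liver held 440 to 2670 bp and B cells 111 to 1402 bp. Kidney was above liver and B cells in all 5 hybrids and above lung only in B6xC3H. The difference of 1882 bp did not pass (adjusted p = 0.375, exact permutation test, n = 5).

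Neighbouring levels in these orders of tissues were often not separated. Kidney and liver overlapped over the 5 hybrids at Slc34a1, Slc5a2, Slc22a6, Lrp2, Umod, Slc12a1 and Slc12a3. They did not overlap at Kl, Aqp2 and Scnn1b, where kidney was higher. The share of all genes at which kidney and liver separate in this way was not counted, so this is a description only. Kidney coverage was lowest in B6xSPRET, the smallest kidney set, at 8 of the 10 genes. The highest kidney set exceeded the lowest 3.91-fold at Slc34a1 and 1.27-fold to 2.06-fold at the other 9.

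To see which sites set kidney apart, hotspots of the 20 adult sets were merged where they shared at least 1 bp. The 10 windows held 377 merged regions, of which 25 were open in all 5 kidney sets and in none of the 15 other sets. That is 1 to 6 regions per gene, and genome-wide 1.99% of regions (14826 of 745754) had this pattern. Of the 25, 5 lay upstream of the gene, 7 over an exon, 10 within an intron and 3 downstream. None overlapped an mESC hotspot and 1, over an exon of Slc22a6, overlapped a CTCF site, where 4.35% and 1.65% of the kidney-only regions of the genome did. A further 65 regions were found in 1 kidney set and no other set. The genome share of that pattern was not counted, so the 65 are a description only.

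**Figure D4:**
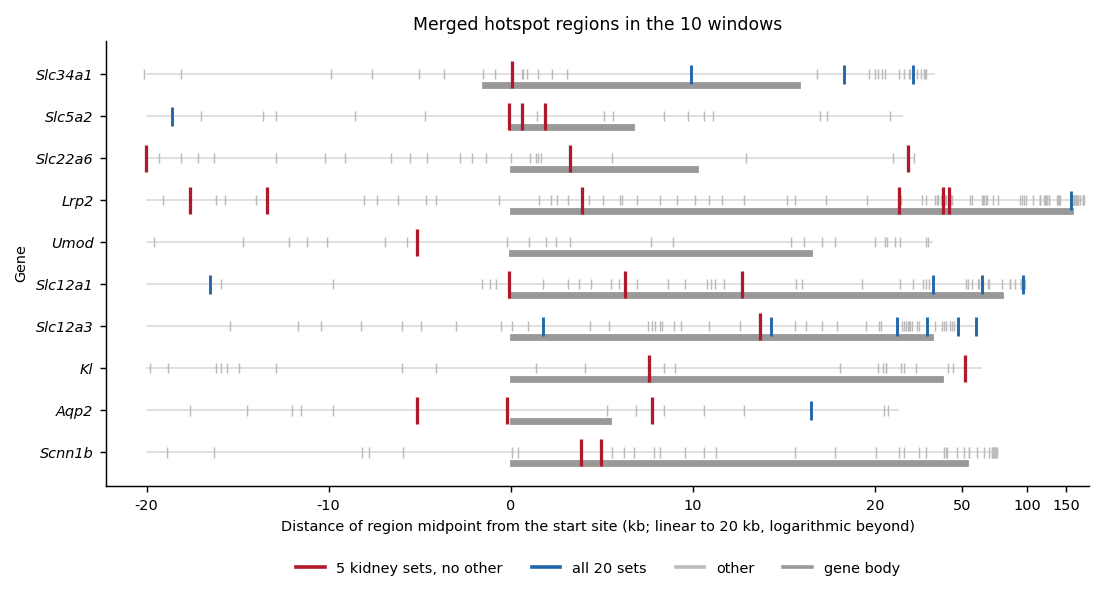
Merged hotspot regions in each gene's window (ticks) by distance of their midpoint from the start site in kb, linear to 20 kb and logarithmic beyond, with the gene body as a grey bar. The 25 regions of all 5 kidney sets and no other set (tall red ticks) lie at the starts of Slc34a1, Slc5a2, Slc12a1 and Aqp2 and at distal sites of all genes but Slc34a1.

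Lrp2 had 6 kidney-only regions, 4 of them in introns and 2 upstream, at 13.4 and 17.6 kb before the start. The region at 17.6 kb was 2256 bp wide, and the hotspots within it covered 578 to 2256 bp in the 5 kidney sets with scores of 36.7 to 100. It had the highest of the lowest scores among the 25. Slc12a1 had 3, at the start and 6.27 and 12.7 kb into the gene. Slc5a2 also had 3, at the start and 0.629 and 1.89 kb after it, so that all its kidney-only regions lay in the first part of a short gene. Aqp2 had 3, at 5.17 kb before the start, at the start and 7.78 kb after it.

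Kl had an intronic region 7.61 kb after the start, of 745 bp and scores of 10.6 to 37.7, and another downstream of the gene, 51.8 kb after the start. Umod had 1, at 5.12 kb before the start, of 391 bp and scores of 7.34 to 14.1. Scnn1b had 2 intronic ones at 3.84 and 4.95 kb, with scores of 1.77 to 11.8, and Slc12a3 had 1 at 13.7 kb with scores of 2.18 to 5.15. Slc22a6 had 3, at 20.1 kb before the start, 3.25 kb after it and 28.5 kb after it. The only such region at Slc34a1 was its start. The parts shared by all 5 kidney sets, or their central 300 bases, are shown for 3 of the distal sites, chosen as upstream or intronic regions of the genes of 3 segments. Capitals mark a match to the AP-2 motif GCCNNNGGC, on either strand.
Lrp2, 17.6 kb upstream, chr2:69603750-69604049, plus strand: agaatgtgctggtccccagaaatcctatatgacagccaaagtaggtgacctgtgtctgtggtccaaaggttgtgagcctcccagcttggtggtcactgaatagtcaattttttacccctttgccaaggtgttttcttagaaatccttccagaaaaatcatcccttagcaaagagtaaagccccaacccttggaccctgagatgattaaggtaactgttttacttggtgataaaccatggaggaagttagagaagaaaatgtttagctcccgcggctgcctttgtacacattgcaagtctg
Umod, 5.12 kb upstream, chr7:119484238-119484537, plus strand: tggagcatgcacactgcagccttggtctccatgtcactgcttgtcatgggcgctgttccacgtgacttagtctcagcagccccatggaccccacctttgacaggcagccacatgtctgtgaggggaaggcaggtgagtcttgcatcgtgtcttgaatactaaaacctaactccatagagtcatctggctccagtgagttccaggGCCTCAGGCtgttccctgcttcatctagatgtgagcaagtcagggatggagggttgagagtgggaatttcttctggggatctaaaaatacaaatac
Kl, 7.61 kb downstream of the start, intron, chr5:150959970-150960269, plus strand: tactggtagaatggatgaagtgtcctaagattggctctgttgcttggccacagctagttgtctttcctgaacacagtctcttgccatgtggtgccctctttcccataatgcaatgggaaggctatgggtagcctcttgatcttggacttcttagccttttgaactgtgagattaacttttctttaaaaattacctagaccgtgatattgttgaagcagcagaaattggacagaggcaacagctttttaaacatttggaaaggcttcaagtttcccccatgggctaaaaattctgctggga

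Motifs of factors known in tubule epithelium were searched on both strands. The HNF1 motif GTTAATNAT, the ESRR motif TCAAGGTCA and the GRHL motif AACCGGTT were in none of the 9 promoters, and 0.801%, 0.423% and 0.146% of all promoters held them. The HNF4 motif CAAAGTCC was in 1 of 9, that of Slc34a1, against 1.42% of all promoters, and began at base 244 of the sequence, on the opposite strand as GGACTTTG. AP-2 matches were in 3 of 9, those of Lrp2, Umod and Slc12a3, against 16.6%. In the central 300 bases of the 25 kidney-only regions HNF4 was in 2, ESRR in 1 and AP-2 in 6, where 4.45%, 1.38% and 8.61% of the 14826 kidney-only regions of the genome held them and 2.01%, 1.05% and 7.26% of all merged regions did. HNF1 was in none of the 25, against 4.38% of kidney-only regions and 1.28% of all regions. A match to these letters is a description, and its absence says nothing of a factor.

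Regions open everywhere were also present. In the 10 windows 16 of 377 regions (4.24%) were open in all 20 adult sets, and 11 of these 16 (68.8%) overlapped a CTCF site of mESCs. Over the genome the shares were 3.77% and 67.2%. Slc12a3 held 6 of the 16 and Slc12a1 held 4, while Slc22a6, Umod, Kl and Scnn1b held none. At the other end, 152 of the 377 regions were absent from every kidney set, and 18 of these, 10 of them at Lrp2, were present in all 5 liver sets. These are 40.3% and 4.77% of the 377, where the genome shares were 59.1% and 4.52%.

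Other genes of the same segments were read from lists of segment markers. These lists were chosen with earlier results of these data known, so their counts beside the genome shares are descriptions. Of 26 further proximal tubule genes, 11 had more bp covered in kidney and none had less, where 1356 and 141 of all 21495 genes tested did. The 3 with the largest differences were Slc6a19, a neutral amino acid transporter (10431 ± 814 bp in kidney, SD, n = 5, against 3065 elsewhere), Slc9a3, the apical sodium proton exchanger (7614 ± 1174 against 1498), and Pth1r, the parathyroid hormone receptor (10023 ± 3209 against 4065). Of 10 thick ascending limb genes, 5 were called, among them the claudin Cldn10 (10244 ± 1008 against 6196) and Bsnd, which encodes barttin (5701 ± 1021 against 2158).

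The distal convoluted and connecting tubule list had none called for bp covered among 10 genes. The lowest adjusted p there was 0.0505 (exact permutation test), at Kcnj10 and Trpv5, and Wnk4, a kinase that acts on the cotransporter encoded by Slc12a3, was the 1 gene called for number of hotspots (adjusted p = 0.0402, exact permutation test). These 3 genes were named after their values were seen. Of 9 principal cell genes 3 were called: the urea transporter gene Slc14a2 (20331 ± 2597 bp in kidney against 9664), the water channel gene Aqp3 (3409.6 ± 706 against 1512) and the vasopressin receptor gene Avpr2 (4176 ± 952 against 2659.5). Of 8 intercalated cell genes 2 were called, the proton pump subunit Atp6v0a4 (14553 ± 2265 against 6817) and the ammonium transporter Rhcg (3989.8 ± 596 against 1597). Over the 63 genes of the 5 lists 21 were called higher and none lower. Of all 21495 genes tested 6.31% were called higher and only 141 genes lower, so the lack of lower calls is no trait of these lists. Of the 63, 11 had the kidney-only start, Avpr2 and Rhcg among them, where 0.405% of all genes did. This too is a description of lists that were not chosen blind to these data.

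For each of the 10 genes the protein-coding gene elsewhere whose covered bp was most alike over the 20 sets was found by Pearson's r, as a description. The points share libraries and depth. These were Oxa1l for Slc34a1 (r = 0.94), Olfr544 for Slc5a2 (0.96), Mpped1 for Slc22a6 (0.98), Ppfia2 for Lrp2 (0.96), Igsf11 for Umod (0.98), Ubap2 for Slc12a1 (0.97), Tbc1d14 for Slc12a3 (0.91), Glis3 for Kl (0.98), Ptgs2 for Aqp2 (0.97) and Arxes2 for Scnn1b (0.98). Genes whose windows met those of the 10 were left out of the search.

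**Figure D5:**
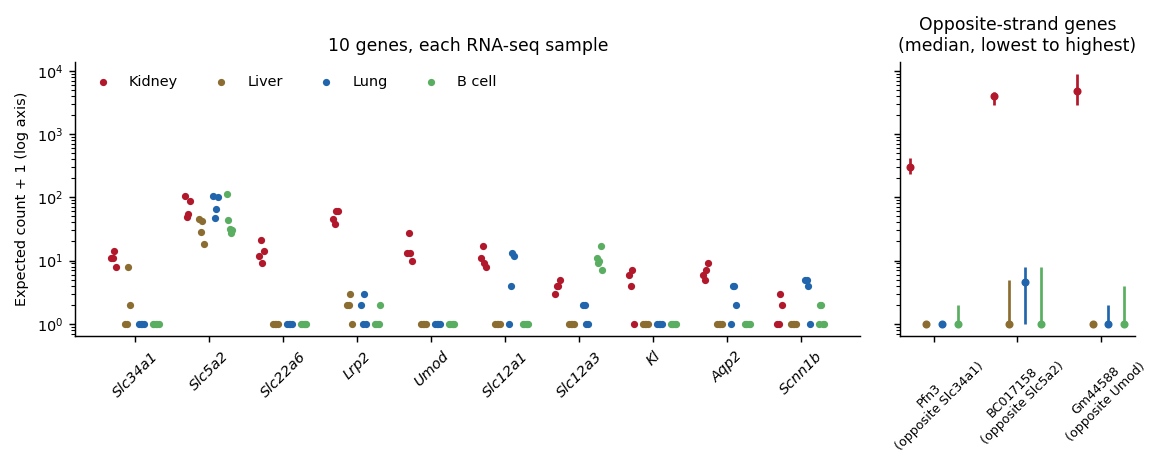
Expected counts plus 1 (log axis) of the 10 genes in each RNA-seq sample, and the median and range of 3 genes that share exon bases with them on the opposite strand. Kidney counts of the 10 genes do not exceed 103, while Gm44588 and BC017158 reach 8815 and 4560 in kidney.

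The RNA-seq tables gave few reads to these genes. Expected counts summed to 437171 to 551273 in the 4 kidney samples, and the 10 genes together took 0.0322% to 0.0416% of them. Umod had counts of 9, 12, 12 and 26 in kidney and 0 in all 13 other samples. Slc22a6 had 8 to 20 in kidney and 0 elsewhere. Lrp2 had 37, 45, 59 and 59 in kidney and 0 to 2 elsewhere, and Slc34a1 had 7 to 13 in kidney and 0 to 7 in liver. Kl had 0 to 6 in kidney and 0 elsewhere. Others had counts in lung as well. Slc12a1 had 7 to 16 in kidney and 0 to 12 in lung, and in B6xSPRET both lung samples were above both kidney samples. Aqp2 had 4 to 8 in kidney and 0 to 3 in lung, and Scnn1b 0 to 2 in kidney and 0 to 4 in lung.

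Only Lrp2 and Slc5a2 had enough counts to enter the edgeR quasi-likelihood test of kidney against the mean of the other 3 tissues. Samples were grouped by tissue, and hybrid was left out of the fit because it was not balanced over tissues. Lrp2 was higher in kidney, by 6.13 ± 0.42 (log2, SE; adjusted p = 2.02e-11), in a fit in which 23.2% of the 4479 genes tested were called higher. Slc5a2 differed by 0.53 ± 0.30 and did not pass (adjusted p = 0.192, edgeR), with 47 to 103 counts in kidney and 17 to 111 in the other samples. Slc12a3 went the other way from its tissue, with 2 to 4 counts in kidney and 6 to 16 in B cells.

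Genes on the opposite strand carried far more. Gm44588, an antisense gene that shares 539 exon bases with Umod, had 2828 to 8815 counts in kidney and at most 3 elsewhere. BC017158, which shares 597 exon bases with Slc5a2, had 2882 to 4560 in kidney and at most 7 elsewhere, and Pfn3, which shares 545 with Slc34a1, had 235 to 416 and at most 1. All 3 were higher in kidney by edgeR's quasi-likelihood test (adjusted p = 1.22e-14, 2.65e-13 and 1.08e-13). The libraries were made with a kit that keeps strand, and the tables count the strand opposite Umod, Slc5a2 and Slc34a1 many times more often than their own in kidney, so the counts of the 10 genes were not read as transcript levels. Whether the counting used the opposite strand setting was not tested.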

How the data were processed

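DNase-seq hotspots of 20 adult conditions and of mESCs, CTCF ChIP-seq hotspots of mESCs and 17 RNA-seq tables were used. Per the study's methods, the authors trimmed reads with Trimmomatic, mapped them with BWA to mm10 and to strain genomes, kept unique reads, and combined the libraries of each condition before running hotspot2 with a false discovery rate of 5%. The deposited files give each hotspot's position and the −log10 of its false discovery rate, limited to 100. Depth is not in these files, so it is represented by the hotspots and Mb of each set. After pooling the hybrids are the repeats, and the window p-values rest on differences among tissues within each hybrid. The authors made the deposited expected counts and TPM values with STAR and RSEM. Expected counts were rounded to whole numbers for tests, and TPM was not tested.

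Genes came from GENCODE vM21 (GRCm38). The start was the 5′ end of the principal transcript (best support, then longest). Window tests exchanged the kidney label within hybrids (all arrangements, two-sided) with Benjamini-Hochberg adjustment at 0.05, in Python 3.11.15 with NumPy 2.4.6. RNA-seq was tested with edgeR 4.0.16 (TMM, filterByExpr) and DESeq2 1.42.0 in R 4.3.3. Of 53715 gene IDs, 53620 were matched to symbols without their version. 1 B cell sample whose hybrid differs between sources was used for its tissue only. Named genes were the 10 members, genes starting in their windows, up to 3 called genes of each segment list with the largest difference, and the most alike gene of each member. 1 gene that this rule names is not reported here. The members and lists were chosen with earlier results of these data known. The tests were checked on simulated data in which liver, lung and B cells did not differ from each other, so the check does not cover such differences. Alternatives were gene body or 50 kb windows, a false discovery rate of 1%, the 75000 highest-scoring hotspots, scaling by Mb covered, neighbours' starts left out, other start and merging rules, each hybrid or kidney sample left out and, added after seeing the data, no B cell sets.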

Additional observations from a re-analysis of the deposited data

Results flagged for a closer look

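Within groups of 4 or 5 samples, 72 groups of values were screened for a sample far from the rest, and 7 were found, where chance gives about 1 in 20. Among hotspot values these were the Slc5a2 window in B6xCAST lung (5410 bp), the Slc22a6 window in B6xC3H kidney (6126 bp), the Slc22a6 window in B6x129 liver (11489 bp) and the Kl window in B6x129 liver (2111 bp), each the highest of its 5 sets. B6x129 liver was also the largest liver set, with 295565 hotspots, and B6xCAST lung the largest lung set, with 281978. Among RNA-seq values they were the Slc34a1 count of 7 in 1 liver sample, the Slc5a2 count of 111 in 1 B cell sample, which had the largest total of the B cell samples (809337), and the Lrp2 count of 1 in 1 B cell sample.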

How the results depend on the processing

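The count of genes with more bp covered in kidney (3) was 2 to 4 with the gene body alone, a false discovery rate of 1%, scaling by Mb covered, neighbours' starts left out or the label permuted over all 20 sets, but which genes it held changed: Kl was in all 5, Slc34a1 in 4, Umod in 3, Slc12a1 in 2 and Slc5a2 in 1. Of the 19785 to 21495 genes tested in those 5 settings, 1484 to 1672 were called. The count for the 10 was 1 (Kl) with the 75000 highest-scoring hotspots, where 1177 of 20273 genes were called. With 50 kb flanks it was 0, where 2 of the 10 passed at an unadjusted p under 0.05 by the same permutation test. In that setting 1216 of 21582 genes were called. With each hybrid left out it was 0 (4 or 5 unadjusted), and so was the count for number of hotspots (4 to 7 unadjusted). Without B cell sets both were 0 (4 unadjusted each). In these fits no gene of the genome was called, since there are fewer arrangements and the smallest p is larger. Aqp2 reversed to -1113 bp with the 75000 highest-scoring hotspots. Genes with a kidney-only start were 3 to 5 in all alternatives, 4 to 5 with a hybrid left out (5 without B6x129, which adds Slc22a6), and kidney-only regions were 22 to 32, and 25 to 33 with a hybrid left out. Over all 21755 genes, 82 to 117 had the kidney-only start in these alternatives. Over the genome, kidney-only regions were 14217 to 21862 of 564747 to 774994 regions. With a hybrid left out they were 16353 to 19265 of 670125 to 712046. In RNA-seq 7 of the 10 were called higher with no filter on low counts, as all 10 were then tested. In that fit 2397 of all 28412 genes were called higher. With a kidney sample left out 1 to 2 of the 10 were called, where Slc12a1 entered the test. Of the 5006 to 5049 genes tested in those fits, 1013 to 1041 were called higher. No paired analysis was possible because the labels give library codes and no replicate numbers, apart from the matching of tissues within hybrids that the window test already used.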
